A study of Mus musculus with 10 samples.

Results

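The exon 4 clone is a line of mouse NIH3T3 fibroblasts in which Cas9 nickase and a pair of guides cut Lin37 at its exon 4. Its libraries were chosen by clone name in the sample labels, which gives 4 of the 10 libraries of the study. All 4 come from cells that carry the Lin37 mutation and an episome selected with hygromycin B and induced with doxycycline together with GFP, and GFP-positive cells were sorted. The episome expresses luciferase in the Lin37-KO group (2 biological replicates) and wild-type Lin37 in the Lin37-rescue group (2 biological replicates). All cells were kept for 60 h without serum (0% FCS), so both groups are serum-starved. The comparison asks which RNAs differ when the mutant cells lack Lin37 and when Lin37 is put back. Both groups descend from a single clone, so any other mutation of that clone is in both, and the rescue level of Lin37 is that of an induced episome. The other 6 libraries belong to a clone cut at exon 6.

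Lin37 is a subunit of MuvB, a complex that joins the pocket proteins p107 and p130 and E2F4 with DP1 to form DREAM in resting cells. DREAM binds promoters of cell cycle genes through E2F sites or the cell cycle genes homology region (CHR) and keeps them repressed in quiescence. Once cells enter the cycle, MuvB leaves the pocket proteins and joins B-MYB and FOXM1, and with them activates genes that peak in G2 and mitosis.

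The guides and the exon between their cuts are shown because they define the clone. Lin37 lies on the minus strand of chromosome 7, and its exon 4 of 9 covers chr7:30557265-30557294 (GRCm38), 30 bases. Capitals mark the guide bases that lie within exon 4, 5 at the exon start (chr7:30557290-30557294) and 17 at its end (chr7:30557265-30557281). The other 15 and 3 bases lie outside the exon, and no annotated transcript holds a whole guide. They are taken to fall in the neighbouring introns, which were not read from a genome. Guide F is written on the plus strand, and guide R and the exon on the minus strand.
Lin37 exon 4: ggattgttccattgctgccacaggcaaaag
Guide F: AATCCctgcagggagagaca
Guide R: GCTGCCACAGGCAAAAGgta

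Levels are RPKM (reads scaled by gene length and library size), with each library divided by a factor so that the typical gene has the same level in all 4. Factors were 2.59 and 0.806 for KO replicates 1 and 2 and 0.970 and 0.504 for rescue replicates 1 and 2. KO replicate 1 stands apart from the other 3 libraries in low values. It has 18739 of 45232 entries at 0, against 10280 in KO replicate 2 and 12382 and 7920 in the rescue libraries. The 1168 olfactory receptor genes, which fibroblasts are not known to express, sum to 1.22 RPKM in KO replicate 1 and to 58.5 RPKM in KO replicate 2. In rescue replicates 1 and 2 they sum to 26.5 and 90.2 RPKM. A set of 13 predicted-gene entries led by Gm10800 takes 32.7% and 62.9% of the deposited RPKM in the KO libraries and 62.1% and 76.1% in the rescue libraries. These measures were chosen after the values were seen, they differ more between KO replicates than between some KO and rescue libraries, and their part in the results was not tested.

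**Figure D1:**
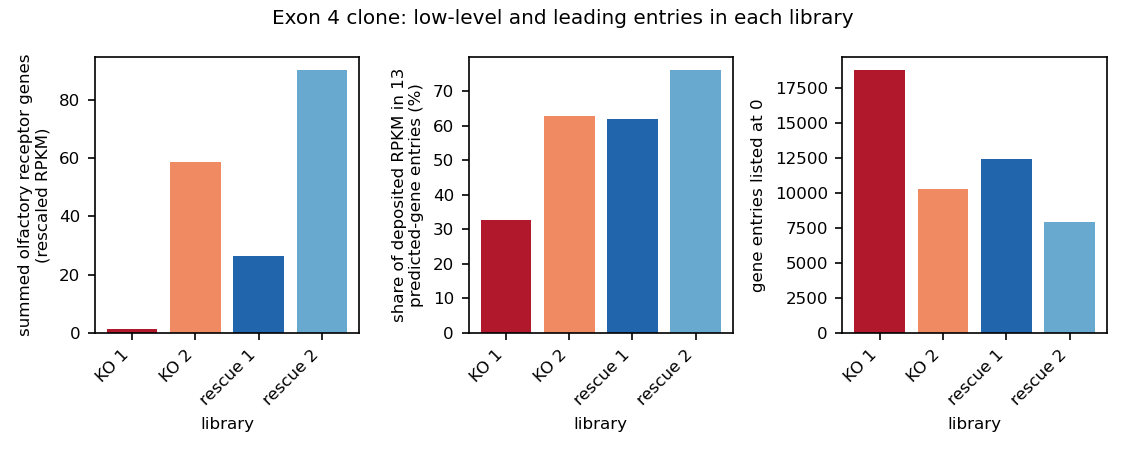
Low-level entries in the exon 4 libraries: entries at 0 RPKM, summed rescaled RPKM of olfactory receptor genes, and percent of deposited RPKM in 13 predicted-gene entries. KO replicate 1 has the most entries at 0 and the lowest olfactory receptor sum.

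Read totals are not given in the sources used here. Among low values, the commonest ratio of a library to rescue replicate 2, a hint at what 1 read is worth, is 2.36 for KO replicate 1, 1.41 for KO replicate 2 and 1.797 for rescue replicate 1. In KO replicate 1 this hint rests on 92 of 11862 low genes. What 1 read adds to a rescaled level also depends on the factor of the library. Which library measures low genes most coarsely was therefore not tested. Replicates of the clone differ by a median of 0.22 on the log2 scale in KO (5711 genes at 1 to 10 RPKM) and 0.21 in rescue. Among 537 genes at 10 RPKM or more these medians are 0.34 and 0.24. In the exon 6 clone the medians at 1 to 10 RPKM are smaller, 0.12 in KO and 0.17 in rescue.

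Fibroblast markers are present in every library, as the labelled cell line calls for. All 10 pass the filter on low values and sum to 555 and 416 RPKM in KO and 456 and 479 RPKM in rescue, with fibronectin (Fn1) the most abundant. Of the contractile fibroblast markers, Acta2 was at 2.05 and 3.03 RPKM in KO and 1.98 and 1.58 RPKM in rescue, while Tagln, Cnn1 and Myl9 were near 0. Markers of other cell types stay low: epithelial markers sum to 0.449 to 0.879 RPKM, endothelial to 0.0495 to 0.299, blood to 0.595 to 1.25 and muscle to 0.069 to 0.272. Neural markers reach at most 0.258 RPKM and adipocyte markers at most 0.290, and none of these passed the filter. The T cell gene Cd3e was at 0.606 RPKM in rescue replicate 2 and at or near 0 in the other 3 libraries.

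Lin37 itself was at 0.210 and 0.212 RPKM in KO and 1.89 and 1.58 RPKM in rescue. The KO libraries lie close together and below both rescue libraries, as the labels have it. The difference was -1.65 on the log2 scale (SE 0.14), adjusted p = 0.00663 in limma. All log2 differences are KO minus rescue on log2(RPKM + 0.5), a scale that understates differences of genes with low levels. The rescue value holds both episomal and chromosomal transcripts, which RPKM do not separate. Gm8802, a processed pseudogene on chromosome 5, was at 0.345 and 0.180 RPKM in KO and 12.7 and 9.85 RPKM in rescue. Its difference was -3.94 (SE 0.23, adjusted p = 0.00377), and it shares 27.3% of its 710 stretches of 31 bases with Lin37. Without KO replicate 1 or rescue replicate 2 neither is called, with adjusted p of 0.0844 and 0.0613 for Lin37 at differences of -1.65 and -1.75, and 0.0651 and 0.0593 for Gm8802. Over all settings tried the adjusted p of Lin37 runs from 0.00339 to 0.503, the highest on RPKM without rescaling. Reads of the Lin37 RNA could be counted for either, so the level of Gm8802 as a gene of its own is uncertain.

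Across the transcriptome, 58 of 16781 genes tested rose in KO (0.346%) and 2 fell (0.0119%), Lin37 and Gm8802, at an adjusted p under 0.05 in limma. The counts with an unadjusted p under 0.05 are 594 and 660. Genes were tested if their 4 libraries average 0.1 RPKM or more, and 11134 of them are protein-coding. A gene with a rescue mean under 0.1 RPKM passes only if its KO mean is higher, so the filter fixes its direction. Ttk, Shcbp1, BC030867, Cdk1 and Nek2 are such genes among those called. In the counts below, the KO-above-rescue order of such genes is no support. The test takes the spread between replicates from both clones. With the exon 4 clone fitted alone, limma called 0 genes higher and 0 lower (lowest adjusted p = 0.0594; 402 and 337 at an unadjusted p under 0.05). In that fit the 58 genes had adjusted p of 0.154 to 0.413, and all 58 an unadjusted p under 0.05. With each clone given its own spread, 21 of the 58 and both lower genes were called. An exact two-sided permutation test of 2 libraries against 2 cannot go below p = 0.333.

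Both counts move when single libraries are left out. Leaving out KO replicate 1 left 0 genes called in limma (760 higher and 541 lower at an unadjusted p under 0.05), and so did leaving out rescue replicate 2 (577 and 627). Without KO replicate 2, 19 genes rose and 5 fell, and without rescue replicate 1, 45 rose and 236 fell. Without exon 6 KO replicate 1 or 2, 20 or 23 genes rose and 2 fell. In each of these fits, and in that of the clone alone, all 58 genes kept a positive difference. The 58 were chosen by p on mostly the same libraries, so this is no separate support for them. On the deposited RPKM without rescaling, which move the median of all genes from -0.07 to 0.57, 16 genes rose and 3 fell (84.2% higher, against 96.7% with rescaling). Differences on deposited RPKM are given relative to that shift of the median.

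**Figure D2:**
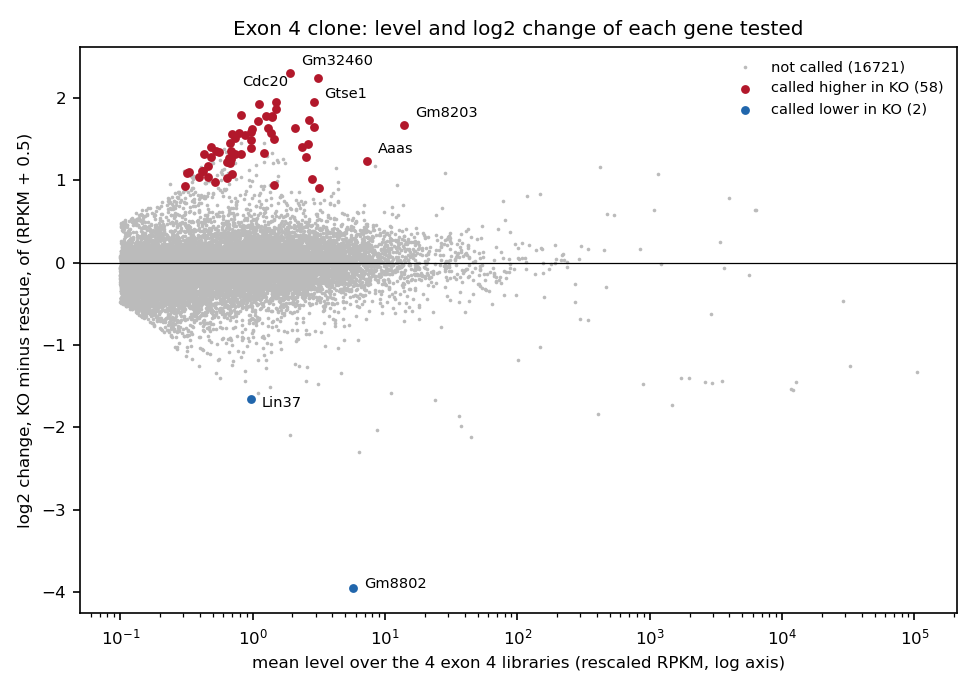
Difference between KO and rescue (log2) against mean level (rescaled RPKM, log axis) for the 16781 genes tested in the exon 4 clone. Called genes are coloured: 58 above 0, most at low mean levels, and Lin37 and Gm8802 below.

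The 58 genes that rose are low in rescue and low to moderate in KO. Their median level is 1.58 and 1.73 RPKM in KO and 0.245 and 0.204 RPKM in rescue. The rescue mean is under 1 RPKM for 50 of them, and the KO mean reaches 10 RPKM for 2, Aaas and the pseudogene Gm8203. In all 58, both KO libraries lie above both rescue libraries, as for 1942 of all genes tested (11.6%). The reverse, both KO libraries below both rescue libraries, holds for 3207 genes (19.1%). Differences of the 58 run from 0.91 to 2.31 on the log2 scale with a median of 1.40, and mean RPKM was 2.10 to 25.3 times higher in KO (median 6.80). Of the 58, 53 are protein-coding and 5 are processed pseudogenes, and they lie on 20 chromosomes. In bulk RNA, more cells expressing a gene and more of its RNA per cell cannot be told apart.

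**Figure D3:**
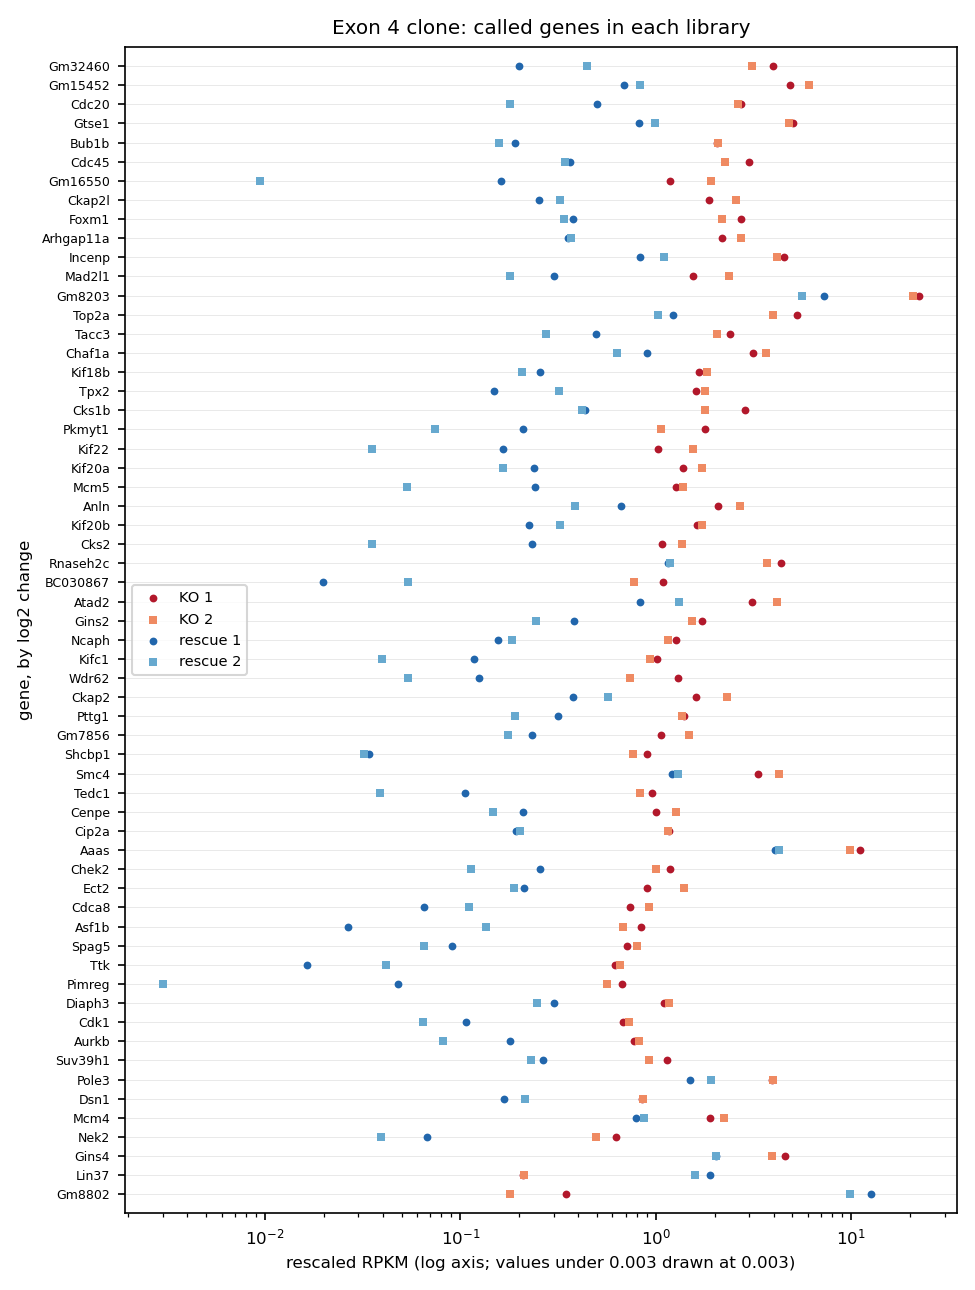
Rescaled RPKM (log axis) of the 60 called genes in each of the 4 libraries, ordered by difference. The KO replicates of a gene mostly lie close together, and rescue values spread most where they are lowest.

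Among mitotic kinases, cyclins and CDC proteins 11 of 26 genes rose, against 0.346% of all genes tested. This list and the other gene lists below were chosen with earlier results of these data known. Such shares are therefore no separate support. Gtse1, a microtubule-associated protein of G2 that restrains p53, was at 5.03 and 4.80 RPKM in KO and 0.818 and 0.996 RPKM in rescue. Its KO libraries lie far above its rescue libraries (difference 1.95, SE 0.14, adjusted p = 0.00488). Cdc20, which activates the anaphase-promoting complex, was at 2.74 and 2.63 RPKM in KO and 0.4999 and 0.180 RPKM in rescue (difference 1.95, adjusted p = 0.0170). The rescue libraries of Cdc20 differ from each other more than its KO libraries do. Incenp and Cdca8, partners of Aurora B in the chromosomal passenger complex, were at 4.51 and 4.18 RPKM in KO and 0.825 and 1.10 RPKM in rescue, and at 0.740 and 0.923 RPKM in KO and 0.0653 and 0.111 RPKM in rescue. Aurora B itself (Aurkb) was at 0.774 and 0.817 RPKM in KO and 0.180 and 0.0814 RPKM in rescue, among the least sure calls (adjusted p = 0.0487). The other called members are the kinase Cdk1, its adaptors Cks1b and Cks2, its inhibitory kinase Pkmyt1, the centrosomal kinase Nek2 and securin (Pttg1). Cdk1 was at 0.683 and 0.731 RPKM in KO and 0.106 and 0.0646 RPKM in rescue, with no overlap between the groups. Of the 15 members not called, cyclin B1 (Ccnb1) was at 0.162 and 0.206 RPKM in KO and 0.0289 and 0.0570 RPKM in rescue and cyclin F (Ccnf) at 0.529 and 0.362 RPKM in KO and 0.187 and 0.211 RPKM in rescue. All 26 have both KO libraries above both rescue libraries, against 11.6% of all genes tested, and the median difference is 0.99, against -0.07 over all genes tested. Some members, such as Ccnb1, Cdk1 and Nek2, passed the filter only through KO, so their order is no support.

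Mitotic kinesins and spindle proteins have 9 of 20 tested members called higher, against 0.346% of all genes tested, and a median difference of 0.98. All 20 have both KO libraries above both rescue libraries, against 11.6%. The called kinesins are Kif18b, which trims microtubule plus ends, Kif20a and Kif20b, which act in cytokinesis, Kif22, which pushes chromosome arms, and Kifc1, which draws spindle poles together. Kif18b was at 1.65 and 1.83 RPKM in KO and 0.256 and 0.207 RPKM in rescue (difference 1.62, SE 0.13, adjusted p = 0.00488). Kif22 was at 1.02 and 1.55 RPKM in KO and 0.166 and 0.0355 RPKM in rescue, where rescue replicate 2 is the lowest library. The called spindle proteins are Tpx2, the activator of Aurora A, with 1.60 and 1.79 RPKM in KO and 0.149 and 0.318 RPKM in rescue, and Tacc3, Ckap2 and Spag5. Tacc3, which links spindle fibres, was at 2.40 and 2.06 RPKM in KO and 0.494 and 0.273 RPKM in rescue (adjusted p = 0.0125). The lowest difference of the list belongs to the spindle midzone protein Prc1, at 0.144 and 0.238 RPKM in KO and 0.0601 and 0.0984 RPKM in rescue, which was not called.

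Kinetochore and spindle checkpoint genes were called higher in 5 of 32 tested members (Bub1b, Cenpe, Dsn1, Mad2l1 and Ttk; 0.346% of all genes tested), with a median difference of 0.68. Both KO libraries lie above both rescue libraries for 29 of the 32, against 11.6% of all genes tested. The checkpoint kinase-like protein Bub1b was at 2.06 and 2.07 RPKM in KO and 0.190 and 0.158 RPKM in rescue (difference 1.93, SE 0.17, adjusted p = 0.00663). Its KO replicates are nearly equal, and so are its rescue replicates. Mad2l1, the checkpoint protein that binds Cdc20, was at 1.55 and 2.37 RPKM in KO and 0.2998 and 0.178 RPKM in rescue, and Ttk, the kinase that starts the checkpoint, at 0.620 and 0.653 RPKM in KO and 0.0164 and 0.0415 RPKM in rescue. The groups overlap for Cenpi, at 0.117 and 0.177 RPKM in KO and 0.0334 and 0.138 RPKM in rescue, and for Zw10, at 0.592 and 0.884 RPKM in KO and 0.441 and 0.778 RPKM in rescue, neither of them called. Cytokinesis genes were called higher in 4 of 10 (Anln, Arhgap11a, Ect2 and Kif20a; 0.346% of all genes tested), with both KO libraries above both rescue libraries in all 10 (11.6%), and a median of 0.97. Arhgap11a, a RhoA GTPase-activating protein, was at 2.17 and 2.71 RPKM in KO and 0.356 and 0.369 RPKM in rescue (difference 1.76, adjusted p = 0.00887). Of the condensin and cohesin list 2 of 15 tested members rose (0.346% of all genes tested), Ncaph at 1.26 and 1.16 RPKM in KO and 0.156 and 0.183 RPKM in rescue and Smc4 at 3.31 and 4.28 RPKM in KO and 1.21 and 1.30 RPKM in rescue. Both are condensin subunits. The condensin partner Smc2 was at 1.58 and 2.44 RPKM in KO and 0.280 and 0.551 RPKM in rescue and missed the threshold (adjusted p = 0.0524), and the cohesin subunits Smc1a and Stag1 had differences of -0.09 and -0.13, not called.

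Origin licensing and helicase genes were called higher in 5 of 23 tested members (Cdc45, Gins2, Gins4, Mcm4 and Mcm5; 0.346% of all genes tested), with a median difference of 0.54 and 15 of 23 above rescue in both KO libraries (11.6% of all genes tested). Cdc45, which joins the helicase when an origin fires, was at 3.00 and 2.27 RPKM in KO and 0.363 and 0.343 RPKM in rescue. This is the largest difference of the list (1.87, SE 0.15, adjusted p = 0.00488). Mcm5, a subunit of the helicase ring, was at 1.27 and 1.38 RPKM in KO and 0.240 and 0.0530 RPKM in rescue, with rescue replicate 2 lowest. The other ring subunit called, Mcm4, was at 1.89 and 2.24 RPKM in KO and 0.790 and 0.868 RPKM in rescue, a smaller difference (0.95) at a higher rescue level. The origin recognition subunits Orc5 and Orc2 have negative differences, -0.60 and -0.40, and neither was called. Orc5 was at 0.167 and 0.294 RPKM in KO and 0.348 and 0.931 RPKM in rescue.

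limma called no gene among 23 tested replication fork enzymes (11 higher and 1 lower at an unadjusted p under 0.05, against 594 and 660 of all 16781 genes tested). Their median difference is 0.46 and 19 of 23 lie above rescue in both KO libraries (11.6% of all genes tested). DNA ligase 1 (Lig1) was at 1.41 and 1.84 RPKM in KO and 0.423 and 0.603 RPKM in rescue, the closest to the threshold (adjusted p = 0.0591). Of the single-strand binding subunits, Rpa2 was at 0.817 and 0.492 RPKM in KO and 0.201 and 0.117 RPKM in rescue. Rpa3 was near 0, at 0.0494 and 0.0665 RPKM in KO and 0.140 and 0.316 RPKM in rescue. Neither was called. Among 10 deoxynucleotide synthesis genes limma called none (3 higher at an unadjusted p under 0.05, against the same 594 of 16781), the median is 0.19 (-0.09 on deposited RPKM, relative to the shift) and 4 lie above rescue in both KO libraries (11.6% of all genes tested). Rrm1, the large subunit of ribonucleotide reductase, was at 2.52 and 3.72 RPKM in KO and 1.75 and 1.82 RPKM in rescue, and thymidylate synthase (Tyms) at 0.189 and 0.109 RPKM in KO and 0.161 and 0.226 RPKM in rescue, with overlapping groups. Homologous recombination and crosslink repair has 1 called member of 20 (0.346% of all genes tested rose), the checkpoint kinase Chek2, at 1.18 and 1.00 RPKM in KO and 0.255 and 0.114 RPKM in rescue. All 20 differences of that list are positive (median 0.44, and 0.15 to 1.05 over all settings). Of its members 17 lie above rescue in both KO libraries, against 11.6% of all genes tested. Brca1 was at 0.615 and 0.894 RPKM in KO and 0.108 and 0.168 RPKM in rescue and missed the threshold (adjusted p = 0.0667).

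Among the MuvB, DREAM and pocket protein genes 14 of 15 were tested, Foxm1 was called higher (0.346% of all genes tested) and Lin37 lower (0.0119%), and the median difference is 0.12. Foxm1, the factor that MuvB recruits in G2, was at 2.72 and 2.17 RPKM in KO and 0.377 and 0.337 RPKM in rescue (difference 1.78, SE 0.13, adjusted p = 0.00488). Its replicates are close within each group. The other MuvB partner of that phase, B-MYB (Mybl2), stayed below the filter at 0.0192 and 0.0531 RPKM in KO and 0.00439 and 0.00362 RPKM in rescue. Of the MuvB core, Lin54, the subunit that binds CHR, was at 1.06 and 1.49 RPKM in KO and 0.217 and 0.522 RPKM in rescue, with no overlap, but it was not called (adjusted p = 0.116). Lin9 was at 0.316 and 0.465 RPKM in KO and 0.0516 and 0.134 RPKM in rescue, Lin52 at 0.467 and 0.477 RPKM in KO and 0.536 and 0.361 RPKM in rescue and Rbbp4 at 0.984 and 1.06 RPKM in KO and 1.17 and 1.30 RPKM in rescue, none of them called. E2f4, the repressor E2F of DREAM, was at 4.79 and 4.13 RPKM in KO and 4.76 and 2.78 RPKM in rescue, and p130 (Rbl2) at 0.656 and 0.591 RPKM in KO and 0.635 and 0.370 RPKM in rescue; both overlap between the groups. The other pocket proteins, p107 (Rbl1) and Rb1, had differences of 0.27 and -0.11. E2f5, Tfdp1, Tfdp2 and the DREAM kinase Dyrk1a had differences of 0.10, 0.02, 0.13 and -0.12, none called.

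Of the E2F family list 2 of 6 were tested and limma called neither, though both are higher at an unadjusted p under 0.05, against 594 of all 16781 genes tested. E2f1, an activator E2F, was at 2.89 and 1.53 RPKM in KO and 0.897 and 0.418 RPKM in rescue (adjusted p = 0.192), and E2f3 at 1.34 and 1.04 RPKM in KO and 0.711 and 0.450 RPKM in rescue (adjusted p = 0.264). In both genes the KO libraries lie above the rescue libraries, and the replicates differ as well. limma called none of 9 G1 cyclins and kinases (0 at an unadjusted p under 0.05), and their median is -0.08. Cyclin D1 (Ccnd1) was at 2.91 and 2.72 RPKM in KO and 3.81 and 1.48 RPKM in rescue, cyclin E1 (Ccne1) at 0.276 and 0.5 RPKM in KO and 0.157 and 0.192 RPKM in rescue and cyclin E2 (Ccne2) at 0.136 and 0.113 RPKM in KO and 0.165 and 0.342 RPKM in rescue, none of them called. Of the CDK inhibitors 4 of 7 were tested and limma called none (2 higher at an unadjusted p under 0.05, against 594 of 16781), with a median of 0.37. It is 0.24 without KO replicate 1 and runs from 0.18 to 0.57 over all settings. p21 (Cdkn1a) was at 26.8 and 22.5 RPKM in KO and 18.2 and 28.3 RPKM in rescue and p27 (Cdkn1b) at 3.70 and 3.35 RPKM in KO and 2.75 and 3.00 RPKM in rescue, both well expressed in every library. The 2 higher members are Cdkn2c and Cdkn2d. Cdkn2c was at 6.15 and 2.95 RPKM in KO and 2.98 and 1.78 RPKM in rescue, with overlapping groups. Cdkn2d was at 0.421 and 0.394 RPKM in KO and 0.207 and 0.103 RPKM in rescue.

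Of the 58 genes, 21 lie outside the lists. Top2a, the topoisomerase that untangles sister chromatids, was at 5.30 and 3.98 RPKM in KO and 1.22 and 1.03 RPKM in rescue (difference 1.65, adjusted p = 0.0184). Among them are genes of chromatin: Chaf1a, the large subunit of chromatin assembly factor 1, at 3.15 and 3.66 RPKM in KO and 0.896 and 0.631 RPKM in rescue, Asf1b, at 0.835 and 0.680 RPKM in KO and 0.0265 and 0.135 RPKM in rescue, and the H3K9 methyltransferase Suv39h1, at 1.14 and 0.926 RPKM in KO and 0.264 and 0.231 RPKM in rescue. None of these overlaps between the groups. Ckap2l, a spindle protein, was at 1.87 and 2.58 RPKM in KO and 0.251 and 0.324 RPKM in rescue (adjusted p = 0.00739). The ribonuclease H2 subunit Rnaseh2c, at 4.36 and 3.71 RPKM in KO and 1.15 and 1.18 RPKM in rescue, the nucleoporin Aaas, at 11.1 and 9.91 RPKM in KO and 4.05 and 4.26 RPKM in rescue, and the DNA polymerase epsilon subunit Pole3, at 3.92 and 3.97 RPKM in KO and 1.501 and 1.91 RPKM in rescue, have rescue levels above 1 RPKM. Ratios are highest where the rescue level is near 0: BC030867 was at 1.09 and 0.774 RPKM in KO and 0.0198 and 0.0539 RPKM in rescue, Shcbp1 at 0.898 and 0.761 RPKM in KO and 0.0340 and 0.0322 RPKM in rescue and Pimreg at 0.670 and 0.561 RPKM in KO and 0.0482 and 0.000646 RPKM in rescue. At such levels a few reads set the rescue value, so these ratios are coarse. The other protein-coding genes outside the lists are Atad2, Wdr62, Tedc1, Cip2a and Diaph3.

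The 5 pseudogenes that rose share sequence with other genes, so their own levels are uncertain. Gm15452, at 4.85 and 6.09 RPKM in KO and 0.690 and 0.826 RPKM in rescue, shares 100% of its 210 stretches of 31 bases with Cks2, which rose as well. Gm8203, at 22.3 and 20.7 RPKM in KO and 7.29 and 5.62 RPKM in rescue, shares 100% of 357 stretches with the histone variant gene H2afz. Gm16550, at 1.18 and 1.92 RPKM in KO and 0.161 and 0.00946 RPKM in rescue, shares 99.0% with Dnajc9, and Gm7856, at 1.06 and 1.47 RPKM in KO and 0.231 and 0.175 RPKM in rescue, 30.3% with Cdc20. Gm32460 has the largest difference of the 58 genes that rose (2.31, SE 0.18, adjusted p = 0.00488), at 3.97 and 3.11 RPKM in KO and 0.199 and 0.445 RPKM in rescue. It shares 12.4% with Cks1brt. Among these 5 the rescue libraries differ by the largest ratio for Gm16550.

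Promoter windows of the called genes are described because both DREAM motifs can be read from them. RefSeq windows (GRCm38.p6, 250 bases before to 50 after a start) were matched by gene for 39 of the 58, which makes a comparison of the shares with those of all genes void. CHR letters (TTTGAA or TTCGAA or TTTAAA or CTTGAA, either strand) are in the windows of 25 of the 39, 64.1%, and of 32.7% of the 9291 tested genes with a window. E2F letters (TTCCCGC or TTGGCGC or TTGGCGG or TTCGCGC, either strand) are in those of 12 of the 39, 30.8%, and 20.7%. A match is a description of the letters, not a site. The stretches of 30 bases below were chosen, after the values were seen, from genes described above, and capitals mark the motif. The first 6 hold CHR letters and the last 2 E2F letters. They lie, in order, at chr4:118437344-118437373 (minus), chr11:102925104-102925133 (minus), chr10:69352910-69352939 (minus), chr15:85859683-85859712 (plus), chr2:113848743-113848772 (minus), chr8:83955668-83955697 (plus), chr8:75109346-75109375 (plus) and chr17:56040358-56040387 (plus).
Cdc20: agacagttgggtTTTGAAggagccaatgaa
Kif18b: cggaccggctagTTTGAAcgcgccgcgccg
Cdk1: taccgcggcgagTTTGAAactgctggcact
Gtse1: gagcgtctcctgTTTAAAcaggccaatcgg
Arhgap11a: aagggtcctcatTTTGAAaacaggagcggg
Asf1b: cggagccggctaTTTGAAgggagcgcgctg
Mcm5: cgccaagaactTTCGCGCcaaaacgtccag
Chaf1a: ggttgccgcggTTCCCGCcaaatacgagcg

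Their distances from the start differ. With negative positions before the start, the CHR letters stand at position -18 in Cdc20, -15 in Cdk1, -12 in Gtse1, -14 in Asf1b and -99 in Arhgap11a, and at 3 in Kif18b. For Gtse1 this is the position in 1 of its 2 windows. The E2F letters stand at -152 in Mcm5 and -47 in Chaf1a. These are the stretches printed above, and they are not all: the windows of Cdk1, Gtse1 and Mcm5 hold further CHR letters, and those of Cdk1, Arhgap11a, Mcm5 and Chaf1a further E2F letters.

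On the lower side no gene besides Lin37 and Gm8802 was called. Next in order of p, among genes of at least 1 RPKM whose KO libraries both lie below both rescue libraries, are Snord100, Marcksl1, Gm13771, Gm37197, Plpp3, Gm9134, Atp5k-ps2 and Prdx4, with adjusted p of 0.0711 to 0.152. These 8 are given as values only. The small nucleolar RNA Snord100 was at 0.773 and 0.222 RPKM in KO and 2.42 and 2.03 RPKM in rescue, with KO replicates that differ more than rescue replicates. Marcksl1, an actin-binding protein, was at 1.45 and 2.07 RPKM in KO and 3.65 and 3.53 RPKM in rescue, and Plpp3, a phosphatase of lysophosphatidic acid, at 3.69 and 3.25 RPKM in KO and 5.79 and 6.77 RPKM in rescue. The peroxidase Prdx4 was at 0.860 and 1.10 RPKM in KO and 2.20 and 2.00 RPKM in rescue. The 4 pseudogenes or predicted genes share sequence with other genes to different degrees: Gm9134 shares 65.8% of its stretches with Srsf10, Atp5k-ps2 27.2% with Atp5k, Gm13771 20.2% with Cox7b and Gm37197 15.9% with Ddx21.

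In the lists of this paragraph and the next, limma called no gene. Brackets give the members tested and those higher and lower at an unadjusted p under 0.05, which over all 16781 genes tested are 594 and 660. Clustered histone genes (24; 6 and 0) have a median difference of 0.34, which falls to -0.00 without rescue replicate 2. Hist1h3b was at 3.07 and 2.11 RPKM in KO and 1.45 and 0.391 RPKM in rescue, and Hist2h3c2 at 3.20 and 1.82 RPKM in KO and 1.51 and 0.249 RPKM in rescue; in both, rescue replicate 2 is lowest. Cholesterol synthesis and uptake (20; 9 and 0) has a median of 0.41, and 13 of the 20 have both KO libraries above both rescue libraries, against 11.6% of all genes tested. Nsdhl, a sterol dehydrogenase, was at 2.46 and 2.01 RPKM in KO and 1.26 and 0.879 RPKM in rescue, while Cyp51 and Fdft1 overlap between the groups. The median deviation of this list from the genes' means is 0.35 in KO replicate 1 and 0.06 in KO replicate 2. It is -0.04 in rescue replicate 1 and -0.37 in rescue replicate 2, so a single library of each group carries most of it. Over all settings, left-out libraries included, the median of the list runs from 0.32 to 0.62. Unfolded protein and amino acid stress genes (16; 4 and 0) have a median of 0.31, which is 0.16 without KO replicate 1, with Trib3 at 2.29 and 1.47 RPKM in KO and 1.25 and 0.862 RPKM in rescue. Lysosome and autophagy genes (17; 2 and 0) have 0.26, and the protease Ctsb was at 10.6 and 10.0 RPKM in KO and 8.13 and 7.21 RPKM in rescue. Immediate early genes (17; 0 and 0) have 0.22, with Nr4a1, a nuclear receptor of the serum response, at 13.2 and 1.04 RPKM in KO and 6.96 and 1.04 RPKM in rescue: the replicates numbered 1 are high and those numbered 2 low in both groups.

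**Figure D4:**
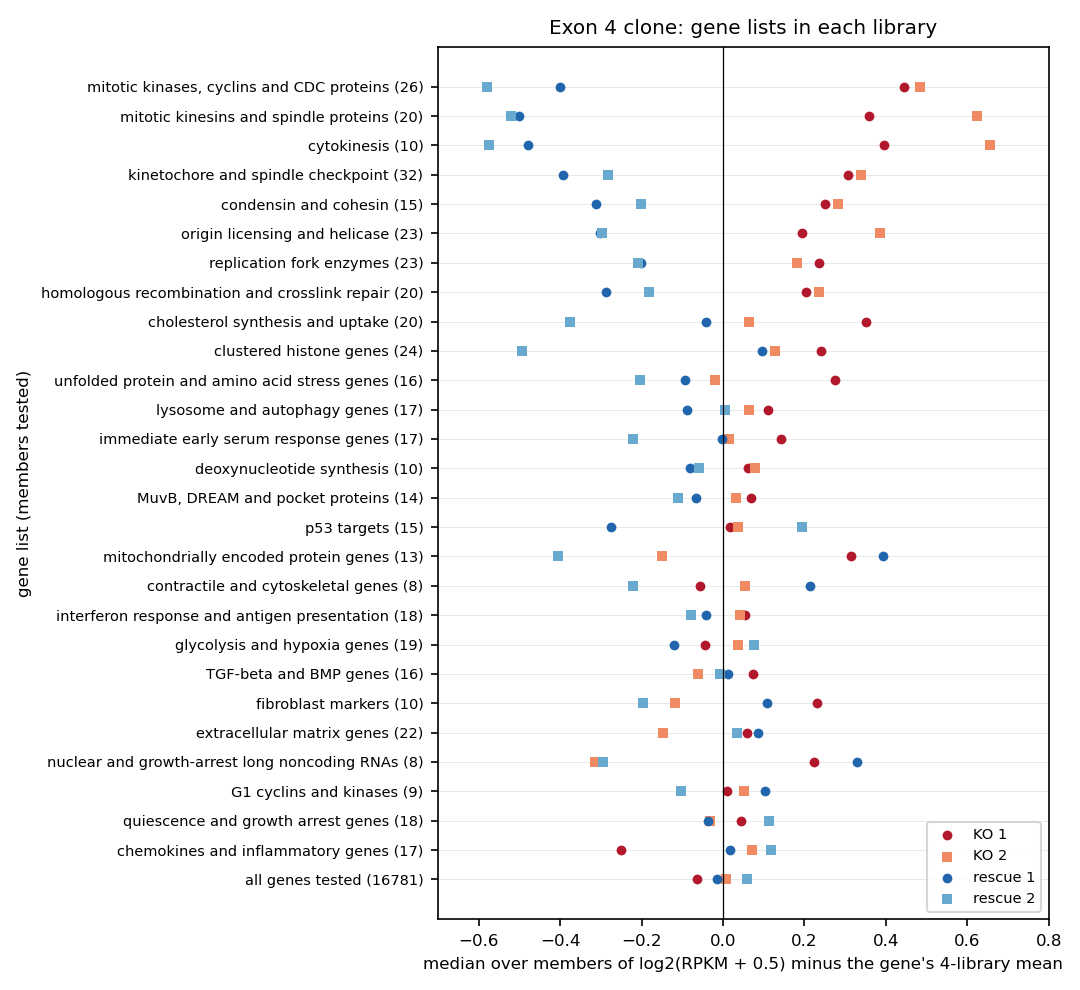
Median over the tested members of each list of log2(RPKM + 0.5) minus the gene's mean over 4 libraries, by library. In the mitotic, replication and repair lists both KO libraries lie above both rescue libraries. The same order holds in the MuvB, histone, cholesterol, unfolded protein, lysosome, immediate early and interferon lists. In several others the groups overlap.

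The same brackets apply to the lists that follow. The p53 targets (15; 0 and 1) have a median of 0.11, with Sesn1 at 0.867 and 0.706 RPKM in KO and 1.33 and 1.23 RPKM in rescue. Quiescence and growth arrest genes (18; 1 and 2) have -0.12, and the receptor Pdgfrb of that list was at 6.25 and 5.10 RPKM in KO and 4.53 and 3.99 RPKM in rescue. Extracellular matrix genes (22; 1 and 3) have -0.02. Both KO libraries lie below rescue in 5 of the 22, against 19.1% of all genes tested, among them Col6a3, at 2.80 and 3.18 RPKM in KO and 4.40 and 4.38 RPKM in rescue. Decorin (Dcn), a matrix proteoglycan, was at 68.9 and 13.6 RPKM in KO and 22.9 and 8.72 RPKM in rescue, highest in the replicate numbered 1 of each group. Fibroblast markers (10; 1 and 0) have -0.00, contractile and cytoskeletal genes (8; 0 and 0) 0.08, TGF-beta and BMP genes (16; 0 and 2) 0.04 and glycolysis and hypoxia genes (19; 0 and 0) 0.04. Tgfb3 was at 2.59 and 2.66 RPKM in KO and 4.02 and 3.42 RPKM in rescue, and the kinase Pkm at 27.1 and 27.2 RPKM in KO and 23.3 and 21.5 RPKM in rescue. Interferon response and antigen presentation genes (18; 2 and 0) have 0.06, and the class I gene H2-K1 was at 0.704 and 0.706 RPKM in KO and 0.405 and 0.362 RPKM in rescue. Chemokines and inflammatory genes (17; 1 and 0) have -0.25, which is -0.07 without KO replicate 1 and -0.05 on deposited RPKM, relative to the shift, with Cxcl5 at 36.5 and 71.7 RPKM in KO and 60.2 and 88.2 RPKM in rescue. Mitochondrially encoded protein genes (13; 0 and 0) have 0.10 and nuclear and growth-arrest long noncoding RNAs (8; 0 and 0) -0.04, and in both lists the replicates numbered 1 of both groups exceed those numbered 2. These medians of the p53, quiescence, matrix, fibroblast, contractile, TGF-beta, glycolysis, mitochondrial, noncoding RNA and G1 lists change sign in at least 1 setting.

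The study published lists of genes higher and lower in Lin37-/- cells, chosen on RNA sequencing of this same experiment. The study states 1 technical and 2 biological replicates for them, a layout that only the exon 6 clone has in the labels, but the clone is not named in the text used here. The direction of the lists is not taken as independent evidence. Of 387 entries in the higher list 346 were tested, 57 rose (0.346% of all genes tested) and 303 have both KO libraries above both rescue libraries (11.6%), with a median difference of 0.62. Gm16550 is the only one of the 58 that is not in it. Of its entries annotated with a peak in G2/M, 112 were tested and 38 called (median 0.85), and of those with a peak in G1/S, 68 were tested and 8 called (median 0.64), all higher. Of 76 entries in the lower list 48 were tested, and 2, Lin37 and Gm8802, fell (0.0119% of all genes tested). The median of that list is -0.24, which is -0.02 without KO replicate 1 and -0.15 without rescue replicate 2, and 14 of the 48 have both KO libraries below both rescue libraries, against 19.1% of all genes tested.

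Against the exon 6 clone, cut elsewhere in the same gene and treated alike, the difference between KO and rescue was tested gene by gene. limma called 0 of 16781 genes (0%) as differing between the clones, with a lowest adjusted p of 0.739 and 741 genes at an unadjusted p under 0.05. On the deposited RPKM 2 genes were called, Gm15502 and Scarna3a, named here because they are the only ones. All 58 genes that rose in the exon 4 clone have a positive difference without overlap in the exon 6 clone too. The 58 were called with a spread taken partly from the exon 6 replicates, so this order is no separate support for them. Of all 16781 genes tested, 814 are higher without overlap in both clones, and 1942 in the exon 4 clone. The median of the 58 in the exon 6 clone is 1.85. Of them, 50 have a smaller difference in the exon 4 clone and 8 a larger one. This tally holds on log2(RPKM + 0.5), which understates differences at low levels. Ratios of mean RPKM run the other way for some of the 50, among them Pimreg, Shcbp1 and Kif22, and were not counted. Lin37 also has the smaller difference in the exon 4 clone, -1.65 against -2.80. In the exon 6 clone it was at 0.510 and 0.335 RPKM in KO and 6 and 5.81 RPKM in rescue. Levels were rescaled within each clone, so they are not compared between the clones. Asf1b has a difference of 1.12 here and 2.29 there, and Pole3 1.02 and 0.82. The spread between replicates is smaller in the exon 6 clone, and a shared spread therefore favours calls in the exon 4 clone, which is the measured limit of the counts above.

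**Figure D5:**
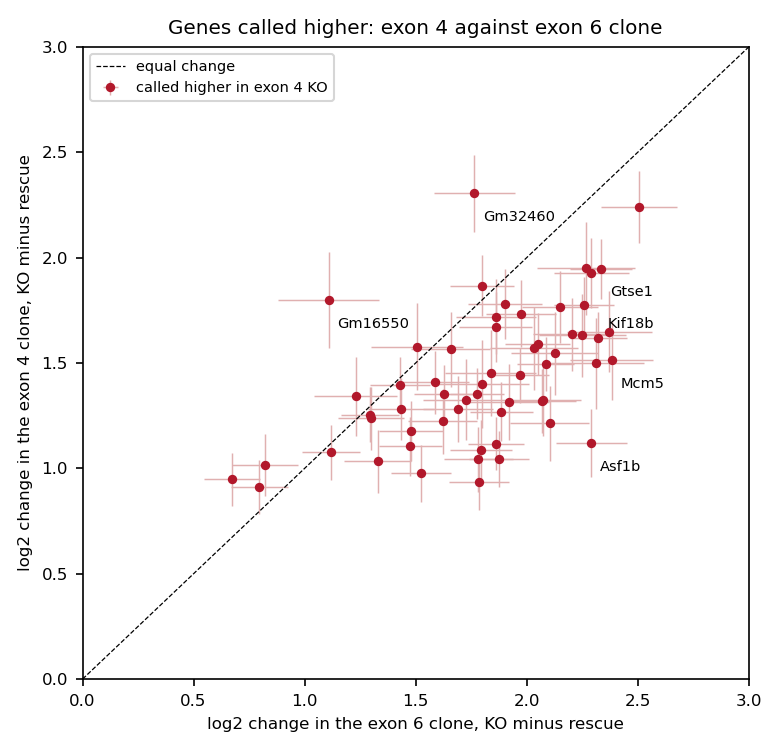
Difference between KO and rescue (log2) in the exon 4 clone (y) against the exon 6 clone (x) for the 58 genes that rose, with standard errors as bars. Of the 58, 50 lie below the dashed line of equal difference on log2(RPKM + 0.5), a scale that understates differences at low levels.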

How the data were processed

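RNA was sequenced from 4 libraries of the exon 4 clone; 6 libraries of a clone cut at exon 6 enter the spread and the comparison of clones. Per the labels and the methods of the study, the authors depleted ribosomal RNA, trimmed reads with cutadapt, aligned them to mm10 and deposited RPKM per gene; Picard 1.89 is named for the reads. The authors tested their own counts with edgeR after taking out GSAT_MM repeat entries. Here no entry was taken out as a repeat. Here the deposited RPKM were divided within each clone by median-of-ratios factors (7047 genes of the exon 4 clone with a mean RPKM of 1 or more and no 0), and 44585 of 45232 entries were matched to the GENCODE annotation of GRCm38. The filter kept 16781 genes that average 0.1 RPKM or more in the 4 libraries and left out 23161 others above 0. limma 3.58.1 in R 4.3.3 fitted log2(RPKM + 0.5) with 4 group means, a shared spread (4 residual degrees of freedom) and a trend, with Benjamini-Hochberg adjustment over all genes tested; called means an adjusted p under 0.05, two-sided. In the exon 6 clone, values of technical replicates were averaged first. The scripts for the fit were tested on simulated data. Python 3.11.15 with pandas 2.3.3 and numpy 2.4.6 gave lists and sequences. Sequencing depth per library is not given in the sources used here.

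Named genes are Lin37 and the MuvB, DREAM and pocket protein list; the 10 called genes with the largest difference in each direction, filled on the lower side to 10 by p among genes of at least 1 RPKM; the 2 members at either end of each list; the 5 genes with the lowest p for a difference between the clones; and the 10 highest entries of each library. Others were named after their values were seen. Lists cover the MuvB complex, E2F genes, replication, repair, mitosis, G1 cyclins, CDK inhibitors, histones, p53, serum response, quiescence, matrix, contractile, TGF-beta, interferon, chemokine, cholesterol, lysosome, glycolysis and stress genes, mitochondrial and noncoding RNAs, cell type markers and the lists of the study. The members and lists were chosen with earlier results of these data known. Other pseudocounts, filters, scalings, fits and left-out libraries were tried.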

Additional observations from a re-analysis of the deposited data

Results flagged for a closer look

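Of the 5 genes with the lowest p for a difference between the clones, 4 are singled out here because their KO libraries all lie on opposite sides of the rescue libraries in the clones. The test of the difference called none of them (adjusted p = 0.739 in limma for each), and 713 of the 16781 genes tested show such opposite order. Asporin (Aspn), a matrix proteoglycan, was at 5.02 and 5.27 RPKM in KO and 4.40 and 4.76 RPKM in rescue in the exon 4 clone and at 1.60 and 1.25 RPKM in KO and 4.75 and 4.08 RPKM in rescue in the exon 6 clone, a difference between the clones of 1.51. Glutaredoxin (Glrx) was at 2.15 and 2.54 RPKM in KO and 1.55 and 1.47 RPKM in rescue and at 1.14 and 1.24 RPKM in KO and 2.19 and 2.26 RPKM in rescue, a difference of 1.19. The predicted gene Gm14517 was at 0.121 and 0.0572 RPKM in KO and 0.426 and 0.498 RPKM in rescue and at 0.574 and 0.729 RPKM in KO and 0.267 and 0.171 RPKM in rescue (-1.39). Serpina1c, a protease inhibitor gene with close paralogs that can share reads, was at 1.21 and 1.64 RPKM in KO and 2.61 and 3.16 RPKM in rescue and at 0.862 and 1.22 RPKM in KO and 0.433 and 0.346 RPKM in rescue (-1.60).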

How the results depend on the processing

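The count of 58 higher genes became 28 with a minimum mean of 1 RPKM (6248 genes tested), 16 on deposited RPKM, 91 with quantile normalization, 101 with factors over all 10 libraries, 21 with a weight for each clone, 0 with no minimum level (39942 genes) and 0 with the exon 4 clone fitted alone. The count of 2 lower genes became 4 with a pseudocount of 0.1, 5 with factors over all 10 libraries, 4 with technical replicates entered separately, 1 with a minimum of 1 RPKM, 0 with no minimum level and 0 with the clone alone. Leaving out each replicate in turn gave 0 to 45 higher and 0 to 236 lower genes, and 0 to 0 genes that differ between the clones. A lone library left in a group is assumed to vary like the other groups. The count of genes that differ between the clones was 0 in limma, and 2 on deposited RPKM; fits of the clone alone give no value for it. Apart from the fits with a block given next, other settings kept the counts within 1.5 times, at 46 to 78 higher and 2 or 3 lower. The causes were not tested.

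A block for the replicate number gave 46 higher and 6 lower genes, 39 and 2 of them shared; in the clone alone with the block 0 were higher and 1 was lower (Gm8802; 636 higher and 954 lower at an unadjusted p under 0.05). Deviations of same-numbered libraries correlate at 0.434, and at 0.204 in the exon 6 clone. With 2 pairs and no statement in the labels of a shared culture, the numbers were not taken as pairs.

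Differences on deposited RPKM were compared after the shift in the median of all genes was taken off; no other setting moved that median by more than 0.1. For the 157 named genes that were tested, no setting turned a called difference. In 2918 comparisons of a gene under a setting a call held, or a difference that was not called moved by less than the spread between replicates (1 SD), with or without a change of sign. In 130 a call was lost, in 15 one was gained and in 160 a difference that was not called moved by more than that spread. List medians moved by less than that spread in 244 comparisons and by more in 154. Over all settings the median ran from 0.62 to 1.90 for mitotic kinases and from 0.59 to 1.94 for mitotic kinesins. It ran from 0.63 to 1.91 for cytokinesis and from 0.43 to 1.53 for kinetochore genes. For lysosome genes it ran from 0.10 to 0.49 and for immediate early genes from 0.10 to 0.47. All values rest on 2 libraries a group from 1 clone.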

Other observations

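Genes around Lin37 were looked at because the guides cut there. Within 20000 bases of it, the heat shock protein gene Hspb6, which lies next to the end of Lin37, was at 1.76 and 0.923 RPKM in KO and 0.686 and 0.695 RPKM in rescue, and Proser3 at 0.340 and 0.410 RPKM in KO and 0.291 and 0.197 RPKM in rescue. In both genes the KO libraries lie above the rescue libraries, and neither was called. The gamma-secretase subunit Psenen, the splicing factor U2af1l4 and the histone methyltransferase Kmt2b overlap between the groups, with differences of 0.39, 0.06 and 0.09. Igflr1 and the microRNA entry Gm38670 were at or near 0 in the libraries and were not tested.

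The highest entries of the libraries are predicted-gene entries, ribosomal RNA and other noncoding RNAs, and the annotation types several of the predicted genes, Gm10800 and Gm10801 included, as protein-coding. Gm10800 was at 27944 and 103988 RPKM in KO and 96069 and 191870.0 RPKM in rescue, the ribosomal RNA entry CT010467.1 at 19815 and 28644 RPKM in KO and 27766 and 39011 RPKM in rescue, and Gm10801 at 9690.0 and 32076 RPKM in KO and 29479.6 and 60388 RPKM in rescue. For Gm10800 and Gm10801 KO replicate 1 is lowest and rescue replicate 2 highest, while KO replicate 2 and rescue replicate 1 are close. KO replicate 1 is also lowest, and rescue replicate 2 highest, for Gm21738, Gm10722, Gm26870, Gm10718, Gm10719 and Gm10720. The 7SK RNA (Rn7sk) was at 4943 and 5165 RPKM in KO and 2755 and 3141 RPKM in rescue, and the signal recognition particle RNA Rn7s1 at 8405 and 6835 RPKM in KO and 6168 and 3834 RPKM in rescue, with Rn7s2 at 8396 and 6803 RPKM in KO and 6140.1 and 3814 RPKM in rescue. Gm23935, Gm42418 and Gm26917 had differences of -0.14, 0.26 and -0.06, and none of these entries was called. Lockd, a noncoding RNA next to Cdkn1b, was at 0.204 and 0.374 RPKM in KO and 0.210 and 0.218 RPKM in rescue.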
